A study of Drosophila melanogaster
Mus musculus with 21 samples.

Results

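Opposite-strand noncoding RNAs are transcripts made from the DNA strand facing a named gene, and mouse nomenclature marks them with the ending os, sometimes followed by a number. They were taken here as every noncoding RefSeq entry (an identifier beginning with NR_) whose symbol had that ending in all 5 tables of the series, with 1 entry per symbol, the one with the most reads in untreated cells. The rule gave 131 RNAs among 20633 entries. For 129 of them the tables also held the sense gene, the gene whose name remains when the ending is removed. These 129 RNAs faced 124 sense genes, because 5 sense genes had 2 opposite-strand RNAs each. The remaining 2 were G6bos and Minos1. Minos1 met the rule by its letters only, as its name stands for a mitochondrial inner membrane protein.

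The study measured nuclear RNA in mouse embryonic stem cells of the E14 background, with Drosophila SG4 cells added for calibration. The PRC1deg line carried Rosa26::Tir1, the plant F-box protein that auxin needs to act, together with Ring1A-/- and AID-Ring1B, and its cells received 500 µM auxin for 2, 4, 8 or 24 h or were left untreated. All PRC1deg groups, the untreated one included, thus lacked RING1A, and auxin is the signal for destruction of AID-tagged RING1B, the remaining catalytic subunit of Polycomb repressive complex 1 (PRC1). The PRC2deg line, Pcgf2-HaloTag with dTAG-Suz12, in which dTAG-13 targets the PRC2 core subunit SUZ12, received 100 nM dTAG-13 for 2 h or was left untreated. The 21 libraries made 7 groups of 3, numbered as replicates in the labels. The labels do not name separate cultures, so p-values measure the spread between these libraries, which may be technical. The sources used here do not say whether either line is a single clone.

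PRC1 adds ubiquitin to histone H2A and, with Polycomb repressive complex 2 (PRC2), holds many developmental genes at a low level in embryonic stem cells. Its targets are mostly CpG island promoters, and such promoters often start transcripts in both directions. Opposite-strand RNAs are common beside homeobox and other developmental regulators, and a few of them have been studied for a role at the gene they face.

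The values are log2 fold changes against untreated cells of the same line and adjusted p-values from DESeq2, as the authors deposited them, with no standard error. A call, higher or lower, needed an adjusted p under 0.05 and a change of over 1.5-fold. Untreated levels are the authors' means of normalised reads, and values per library were not used here. They added up to 30450536 reads in PRC1deg and 29474239 in PRC2deg, and depth per library is unknown. Of 10 stem cell markers fixed for a check 9 were measured, with 802 or more untreated reads each in PRC1deg and 1326 or more in PRC2deg, and none was called at any auxin time. A list of 10 markers of primitive endoderm, trophoblast and fibroblasts summed to 1858 untreated reads in PRC1deg, against 124079 for the stem cell markers, with Cdx2 at 0. Of these 10 markers, 4, 5, 6 and 6 were called higher at 2, 4, 8 and 24 h. Their part in the results below was not tested. Rnf2, the gene of RING1B, had values of 0.38, 0.94, 0.74 and 0.34 at 2, 4, 8 and 24 h by the authors' deposited table, but the degron acts on protein, so this does not check the depletion.

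Most opposite-strand RNAs were scarce. Their median level was 0.555 reads per kilobase in untreated PRC1deg cells, against 8.19 for their sense genes. A median of 5.87 untreated reads lay behind their values, against 360 for the sense genes and 261 for all entries. In that line 17 of the 131 were listed at 0, 79 had under 10 reads and 17 had 50 or more. The most reads were those of Minos1 with 3103 reads, followed by Ino80dos with 1837 and Brip1os with 1405, which face an INO80 chromatin remodeller subunit gene and a DNA repair helicase gene. In PRC2deg, whose values were normalised separately, the median was 7.34 reads, 14 were listed at 0 and 72 had under 10 reads.

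Set beside their sense genes per length, most of the RNAs were the scarcer partner. In untreated PRC1deg cells 16 of 129 RNAs had more mean reads per kilobase than the sense gene, and in untreated PRC2deg cells 18 did. Rab26os had 1017 reads per kilobase, against 10.4 for Rab26, a small GTPase gene of vesicle transport. Epb41l4aos had 322 reads per kilobase, against 49.7 for Epb41l4a. Crxos, which faces the photoreceptor homeobox gene Crx, had 3.48 reads per kilobase, against 0.0503 for Crx, which rested on 0.704 untreated reads. Among developmental regulators, Six3os1 (0.532 reads per kilobase, against 0.0871 for Six3), Foxd2os (1.43, against 0.447), Foxl2os (0.458, against 0.185) and Hoxa11os (0.835, against 0.635) lay above their partners, though Six3, Foxd2, Foxl2 and Hoxa11 rested on 0.467, 1.17, 0.467 and 2.35 untreated reads. At the other end, Tbx3os2 had 7.13 reads per kilobase, against 672 for Tbx3, a T-box gene active in stem cells. Lengths in the tables are of the size of unspliced genes, 148 kb for Nkx2-2os, so these levels spread the reads over introns as well.

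**Figure D1:**
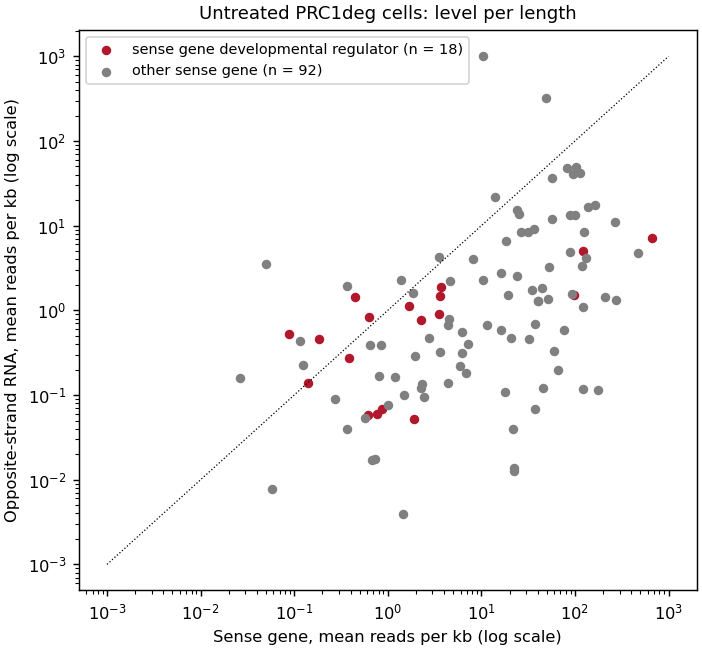
Level in untreated PRC1deg cells of each opposite-strand RNA (vertical axis) against its sense gene (horizontal axis), both as the authors' mean normalised reads per kilobase on log scales, for the 110 pairs in which neither was listed at 0; the dotted line marks equal levels. Most points lie below the line, and Rab26os (1017 against 10.4) and Crxos (3.48 against 0.0503, Crx on 0.704 reads) lie far above it.

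After 2 h of auxin, 16 of the 131 RNAs were called higher and 0 lower. Of all entries tested at that time, 5.55% were called higher and 0.255% lower. At 4 h 21 RNAs were higher and 0 lower, beside backgrounds of 16.1% and 0.13%. At 8 h 19 were higher and 1 lower, beside 25.7% and 0.0869%, and at 24 h 16 were higher and 0 lower, beside 11.5% and 0.612%. The calls came to 12.2%, 16.0%, 14.5% and 12.2% of all 131 RNAs, and to 14.4%, 24.4%, 23.8% and 18.6% of those with an adjusted p. An adjusted p was given for 111, 86, 80 and 86 of the 131. An RNA with few untreated reads may have been tested more readily where auxin libraries brought reads, so the share of tested RNAs supports nothing here. Counted alike over all symbols, 5.24%, 14.3%, 22.8% and 10.2% of 17415 coding symbols and 2.47%, 7.20%, 7.04% and 4.41% of 1903 other noncoding symbols were higher. The share of the RNAs was above that of coding symbols at 2 h, near it at 4 and 24 h and below it at 8 h, an order that turns at 8 h with centring, as given next. Among the 52 RNAs with 10 or more untreated reads, 5, 9, 8 and 5 were higher, or 9.62%, 17.3%, 15.4% and 9.62%, beside 5.18%, 15.6%, 25.5% and 10.6% of all entries with as many reads. After subtracting the median fold change of the entries that had at least 50 untreated reads, 16, 19, 16 and 16 of the 131 RNAs were higher, beside 5.46%, 9.81%, 10.7% and 9.67% of entries tested. Only the fold change was centred here and below. The adjusted p stayed the deposited one and was not recomputed for the centred value. As shares of all symbols these were 12.2%, 14.5%, 12.2% and 12.2% of the RNAs, against 5.14%, 8.43%, 9.14% and 8.55% of coding symbols. With centring the share of the RNAs was thus the larger at every time, 8 h included. The authors label their values as spike-normalised, the Drosophila cells being the added spike. Centring removes any general change that this calibration kept, and whether the general rise was real was not tested.

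The middle of the set lay below that of all entries. The median log2 fold change of the 125 RNAs with a value was 0.02, 0.17, 0.13 and 0.02 at 2, 4, 8 and 24 h by the authors' deposited table, beside 0.11, 0.32, 0.44 and 0.19 over all entries. Centring subtracts 0.15, 0.40, 0.50 and 0.24, the medians of entries with at least 50 untreated reads. This put the median of the RNAs at -0.13, -0.22, -0.36 and -0.22, a negative sign that comes from the subtraction. Over the 52 RNAs with 10 or more untreated reads the median was 0.087, 0.30, 0.28 and 0.13. All entries with as many reads had 0.15, 0.39, 0.49 and 0.24. Deposited values on few or no reads often lay near 0, as for Kcnmb4os1, listed at 0 reads, with -0.0009 at 2 h. How far read depth sets these medians was not tested. The sense genes of the RNAs, with more untreated reads, lay higher, with medians of 0.18, 0.48, 0.50 and 0.21 by the authors' deposited table. Of these 124 genes, 27, 32, 45 and 31 were called higher, or 21.8%, 25.8%, 36.3% and 25.0%, and 1, 1, 0 and 3 were lower. With centring 27, 29, 30 and 29 were higher, or 21.8%, 23.4%, 24.2% and 23.4%, beside the shares of coding symbols given above. The nuclear RNA is a bulk sample, so more cells with an RNA and more RNA per cell cannot be told apart. The 4 auxin comparisons share their untreated libraries, and the 24 h libraries are numbered apart from those of 0 to 8 h, so any sequencing run of their own and the time of treatment cannot be told apart.

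**Figure D2:**
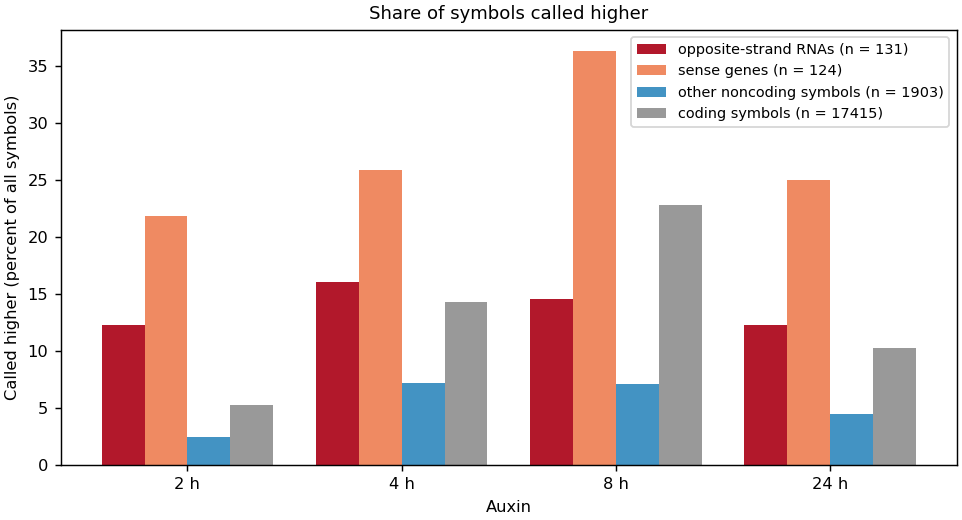
Percent of all symbols called higher (adjusted p under 0.05 and over 1.5-fold) at each auxin time, for the 131 opposite-strand RNAs, their 124 sense genes, 1903 other noncoding symbols and 17415 coding symbols. Opposite-strand RNAs stand at 12.2% at 2 h, against 5.24% for coding symbols, and at 14.5% at 8 h, against 22.8%, an order that turns with centring (12.2% against 9.14%).

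As classed here, the RNAs that rose were mostly those beside developmental regulators. By a list of gene family prefixes, 23 RNAs faced a developmental regulator, among them Hox, Dlx, Nkx, Fox, Lhx and Pax genes, and 106 faced another gene. Hoxa11, Hoxd3, Foxd2 and Foxl2 were included only by a reading of the list chosen after the data were seen. Their RNAs were called higher at every time, and the list as worded would count them with the other genes, which narrows the contrast below. Of the 23, 13 were called higher at 2 h and 13 at each later time, with 0 lower. The 106 others gave 3, 8, 6 and 3 higher calls at 2, 4, 8 and 24 h, and 1 lower call at 8 h. Their higher calls came to 2.83%, 7.55%, 5.66% and 2.83%, beside 2.47%, 7.20%, 7.04% and 4.41% of other noncoding symbols. With the list as worded, the shares of the others would lie above those of other noncoding symbols at every time. With centring these RNAs gave 3, 6, 3 and 3 higher calls, and the 23 still gave 13 at each time. The medians were 1.81, 2.39, 2.44 and 1.98 for RNAs of developmental regulators and 0.01, 0.11, 0.04 and 0.01 for the others by the authors' deposited table. For comparison, 46.7%, 61.2%, 64.3% and 57.1% of the 345 coding genes with these prefixes were higher, and 56.5% of the 23 RNAs at each time.

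**Figure D3:**
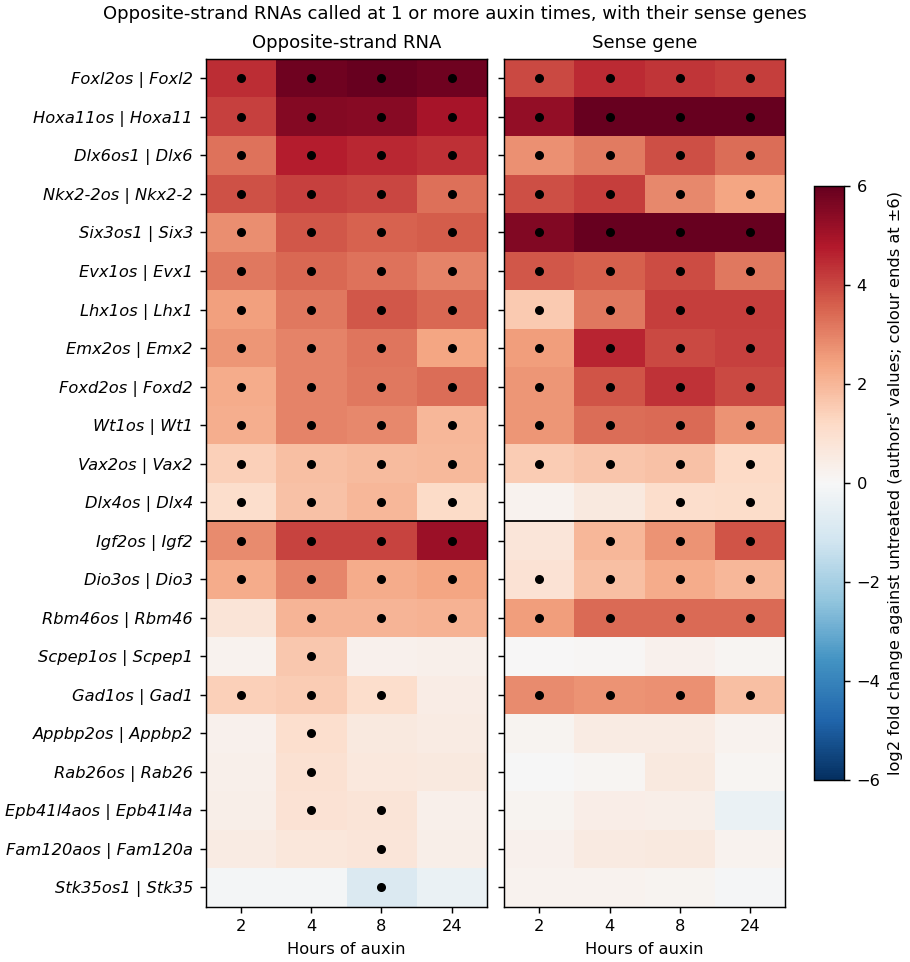
Log2 fold change against untreated cells (colour, the authors' values, ends at 6 and -6) of the 22 opposite-strand RNAs called at 1 or more auxin times and with reads in untreated cells (left), and of their sense genes (right), with dots on called values. The 12 rows above the line face developmental regulators and have a dot at every time on the left; Hoxd3os1 is left out because it was listed at 0 in untreated cells.

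Several of these RNAs face forebrain and eye regulators. Six3os1, from the locus of Six3, a homeobox gene of forebrain and eye, had 5.87 untreated reads and log2 fold changes of 2.81, 3.71, 3.53 and 3.63 at 2, 4, 8 and 24 h by the authors' deposited table. Six3 itself stood at 5.56, 8.01, 8.50 and 8.11 by the authors' deposited table, on 0.467 untreated reads, so both rose at every time. A fold change on so few untreated reads depends on the fit, and the tables give no error for it. Emx2os, partner of the cortical homeobox gene Emx2, had 4.69 reads and values of 2.64, 2.99, 3.23 and 2.39, against 2.53, 4.58, 3.95 and 4.11 for Emx2 on 0.942 reads by the authors' deposited table. Vax2os had 12.9 reads and faces Vax2, a regulator of the ventral eye. Its values were 1.43, 1.83, 1.89 and 1.95, against 1.51, 1.67, 1.76 and 1.20 for Vax2 on 96.7 reads, and all were called by the authors' deposited table. The smallest of the adjusted p-values from DESeq2 for Vax2os was 7.2e-05, at 24 h.

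Dlx6os1 is the RNA known as Evf2, which lies across the Dlx5 and Dlx6 region and has been studied in forebrain interneurons. It had 2.82 untreated reads and rose at every time, by 3.26, 4.72, 4.51 and 4.37 on the log2 scale by the authors' deposited table, where Dlx6, on 2.83 reads, stood at 2.77, 3.14, 3.85 and 3.36. The other RNA of that gene, Dlx6os2, was listed at 0 in untreated PRC1deg cells and was not called. Dlx4os had 26.4 reads, or 1.89 reads per kilobase against 3.73 for Dlx4, and values of 1.07, 1.78, 1.99 and 1.17 by the authors' deposited table, all called. Dlx4, a distal-less homeobox gene, had values of 0.20, 0.59, 1.05 and 1.12 by the authors' deposited table, and only those at 8 and 24 h were called. Centred on the median of well-read entries, the Dlx4 value at 8 h was 0.55 and no longer past 1.5-fold. Whether Dlx4os and Dlx4 differed at 2 or 4 h was not tested.

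For the neural tube and oligodendrocyte regulator Nkx2-2, the entries of the RNA and of the sense gene were both called higher at every time. Nkx2-2os, which has been studied in oligodendrocyte differentiation, had 9.97 untreated reads over 148 kb and values of 3.84, 4.08, 4.01 and 3.31, against 3.88, 4.13, 2.88 and 2.39 for Nkx2-2 on 2.82 reads by the authors' deposited table. The adjusted p of Nkx2-2os at 4 h, from the authors' DESeq2 fit, was 4.5e-16.

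Among axis, limb and organ regulators, Hoxa11os had 3.78 untreated reads and values of 4.09, 5.48, 5.45 and 4.97 at 2, 4, 8 and 24 h by the authors' deposited table. This RNA lies opposite Hoxa11, a limb and reproductive tract gene that stood at 5.29, 6.90, 7.09 and 7.09 on 2.35 reads by the authors' deposited table. Hoxd3os1 was listed at 0 in untreated PRC1deg cells and was called higher at every time, with adjusted p-values between 0.018 and 0.00032 from DESeq2, and its sense gene Hoxd3 had values of 2.41, 2.84, 2.89 and 2.56 on 47.4 reads by the authors' deposited table. The deposited fold change of Hoxd3os1 is not printed here, since its untreated level was listed at 0. It does enter the calls, medians and correlations. Evx1os, from the locus of the primitive streak homeobox gene Evx1, had 7.28 reads and values of 3.17, 3.43, 3.28 and 2.97, against 3.74, 3.56, 3.91 and 3.15 for Evx1 on 8.22 reads by the authors' deposited table. Lhx1os, which faces a LIM homeobox gene of head and kidney, rose by 2.46, 3.16, 3.72 and 3.46 on 2.81 reads, against 1.55, 3.15, 4.17 and 4.17 for Lhx1 on 2.34 reads by the authors' deposited table.

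Of the RNAs called at every time, Wt1os had the most reads. It had 45.8 untreated reads, or 0.917 per kilobase, against 164, or 3.49 per kilobase, for Wt1, a zinc finger regulator of kidney and gonad. Its log2 fold changes were 2.18, 2.96, 2.89 and 2.00, against 2.67, 3.34, 3.41 and 2.70 for Wt1, by the authors' deposited table. The adjusted p of Wt1os from DESeq2 was 2.8e-08 at 2 h and 3.4e-15 at 4 h. Wt1os therefore rose at every time, and its value lay below that of Wt1 at every time, a difference that was not tested.

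Both forkhead RNAs of the set rose. Foxd2os had 16.9 untreated reads and values of 2.22, 2.98, 3.18 and 3.35, against 2.64, 3.77, 4.34 and 3.98 for the kidney regulator Foxd2 on 1.17 reads by the authors' deposited table. Foxl2os had the highest values of the RNAs with reads in untreated cells, 4.45, 5.84, 6.17 and 5.85 on 2.82 reads by the authors' deposited table. Foxl2, a regulator of ovary identity, stood at 3.95, 4.47, 4.30 and 4.14 on 0.467 reads by the authors' deposited table.

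The other 10 RNAs beside developmental regulators, Dlx6os2 among them, were not called higher at any time. Pax6os1, with 7.06 untreated reads over 134 kb, had values of 0.04, 0.22, 0.24 and 0.21, while Pax6, a regulator of eye and brain, stood at 2.57, 3.19, 2.83 and 2.35 on 54.5 reads and was called at every time by the authors' deposited table. Msx1os and Zeb2os were listed at 0 untreated reads, while Msx1 and Zeb2 were called higher at every time, with values of 3.23, 4.35, 4.35 and 4.22 for Msx1 and 1.58, 2.36, 2.08 and 0.97 for Zeb2 by the authors' deposited table. Otx2os1 had many more reads, 621, and values of -0.16, 0.26, 0.25 and -0.19, where Otx2, an epiblast and brain regulator, had 0.41, 0.70, 0.19 and -0.03 on 1202 reads and was called at 4 h only by the authors' deposited table, a call that ended with centring (0.30). Tbx3os2 stayed between -0.43 and -0.02 and Zfhx2os between 0.10 and 0.44 by the authors' deposited table, and neither sense gene was called. Hnf4aos had values of 0.19, 0.47, 0.34 and 0.28 on 36.4 reads by the authors' deposited table, without a call, and Hnf4a, a liver and endoderm regulator, was lower at 24 h at -1.21. Sox5os3 was listed at 0 and had no fold change, and Sox5 was lower at 24 h at -2.10 by the authors' deposited table. Gata5os, on 0.467 reads, was not called, while Gata5 was called higher at 8 h only, at 1.49 by the authors' deposited table, and kept that call with centring.

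Outside these families, RNAs of 2 imprinted loci were called higher at every time. Igf2os, opposite the fetal growth factor gene Igf2, had 4.24 untreated reads and log2 fold changes of 2.82, 4.06, 4.05 and 5.12 at 2, 4, 8 and 24 h by the authors' deposited table, all called, with an adjusted p of 4.9e-22 from DESeq2 at 24 h. Igf2 had values of 0.73, 2.00, 2.68 and 3.76 on 73.4 reads by the authors' deposited table and was called from 4 h on. Dio3os, an RNA of the imprinted Dlk1-Dio3 region, had 4.70 reads and values of 2.21, 2.94, 2.22 and 2.35, against 0.87, 1.79, 2.24 and 1.98 on 65.0 reads for Dio3, which encodes a thyroid-hormone-inactivating deiodinase, by the authors' deposited table. All of the Dio3os and Dio3 values were called. Peg3os, at another imprinted gene, had 1.18 reads and was not called.

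Rbm46os and Gad1os were each called at 3 of the 4 times, and differences between times were not tested. Rbm46os, opposite a germ cell RNA-binding protein gene, had 44.8 untreated reads and values of 0.77, 2.05, 2.02 and 2.09 by the authors' deposited table, called at 4, 8 and 24 h. Rbm46 stood at 2.49, 3.41, 3.39 and 3.38 on 177 reads by the authors' deposited table and was called at every time. A shorter entry of Rbm46os, of 39.2 kb beside 66.9 kb, had values of 0.05, 1.74, 1.47 and 1.65 by the authors' deposited table. Gad1os, opposite the gene of a GABA-synthesising enzyme, had 21.3 reads and values of 1.42, 1.52, 1.06 and 0.44, against 2.84, 2.69, 2.76 and 1.82 for Gad1 on 78.1 reads by the authors' deposited table. Gad1os was called at 2, 4 and 8 h and Gad1 at every time, and the Gad1os value at 8 h came to 0.57 after centring, just under 1.5-fold.

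The remaining calls fell at 1 or a pair of times, on RNAs whose sense genes were not called. Epb41l4aos, with 354 untreated reads, had values of 0.34, 0.87, 0.75 and 0.32 by the authors' deposited table and was called at 4 and 8 h. Rab26os (503 reads) was called at 4 h at 0.89, Appbp2os (41.5 reads) at 4 h at 1.03, Scpep1os (3.42 reads) at 4 h at 1.62 and Fam120aos (73.0 reads) at 8 h at 0.71 by the authors' deposited table. Over all entries with at least 50 untreated reads the median was itself 0.40 at 4 h and 0.50 at 8 h by the authors' deposited table. With centring on it, Epb41l4aos came to 0.47 and 0.26, Rab26os to 0.50 and Fam120aos to 0.22, all under 1.5-fold. Appbp2os at 0.63 and Scpep1os at 1.23 stayed past 1.5-fold at 4 h, with the adjusted p not recomputed. Stk35os1, with 50.7 reads, was the 1 RNA called lower, at 8 h, with a value of -0.87 and an adjusted p of 0.049 from DESeq2 by the authors' deposited table. The sense gene, the kinase gene Stk35, stood at 0.19 in the same fit and was not called.

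Counted as pairs, RNA and sense gene were both higher in 14, 16, 17 and 16 of 129 pairs at 2, 4, 8 and 24 h. The sense gene alone was higher in 16, 20, 32 and 18 pairs and the RNA alone in 2, 5, 2 and 0. No pair was called in opposite directions. Where the sense gene was higher, the RNA was too in 46.7%, 44.4%, 34.7% and 47.1% of pairs, and where it was not, in 2.02%, 5.38%, 2.50% and 0%. These shares differed by class. Where a developmental regulator was higher, its RNA was too in 75%, 70.6%, 72.2% and 76.5% of pairs, and where another sense gene was higher, in 14.3%, 21.1%, 12.9% and 17.6%. The prefix list as worded narrows this contrast. In pairs of either class whose RNA had 10 or more untreated reads, the sense gene was higher in 5, 7, 12 and 6. The RNA was too in 80%, 71.4%, 50% and 83.3% of these. How far read depth sets the difference between classes was not tested. Among pairs with a developmental regulator, both were higher in 12, 12, 13 and 13 of 23. Of the pairs with both higher, the RNA had the larger fold change in 6, 7, 7 and 8. Hoxd3os1, listed at 0 untreated reads, is among these at every time. Across the 122 pairs with both values, Pearson's r was 0.75, 0.72, 0.73 and 0.74 and Spearman's rho 0.36, 0.40, 0.41 and 0.40. These describe pairs that share libraries and, in 5 cases, a sense gene, and they include RNAs listed at 0 untreated reads. Within the 100 pairs of other sense genes Pearson's r was 0.33, 0.41, 0.45 and 0.59, and within the 22 of developmental regulators 0.68, 0.62, 0.61 and 0.62. Spearman's rho was 0.19, 0.25, 0.21 and 0.20 within the others, and 0.58, 0.54, 0.53 and 0.62 within developmental regulators.

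**Figure D4:**
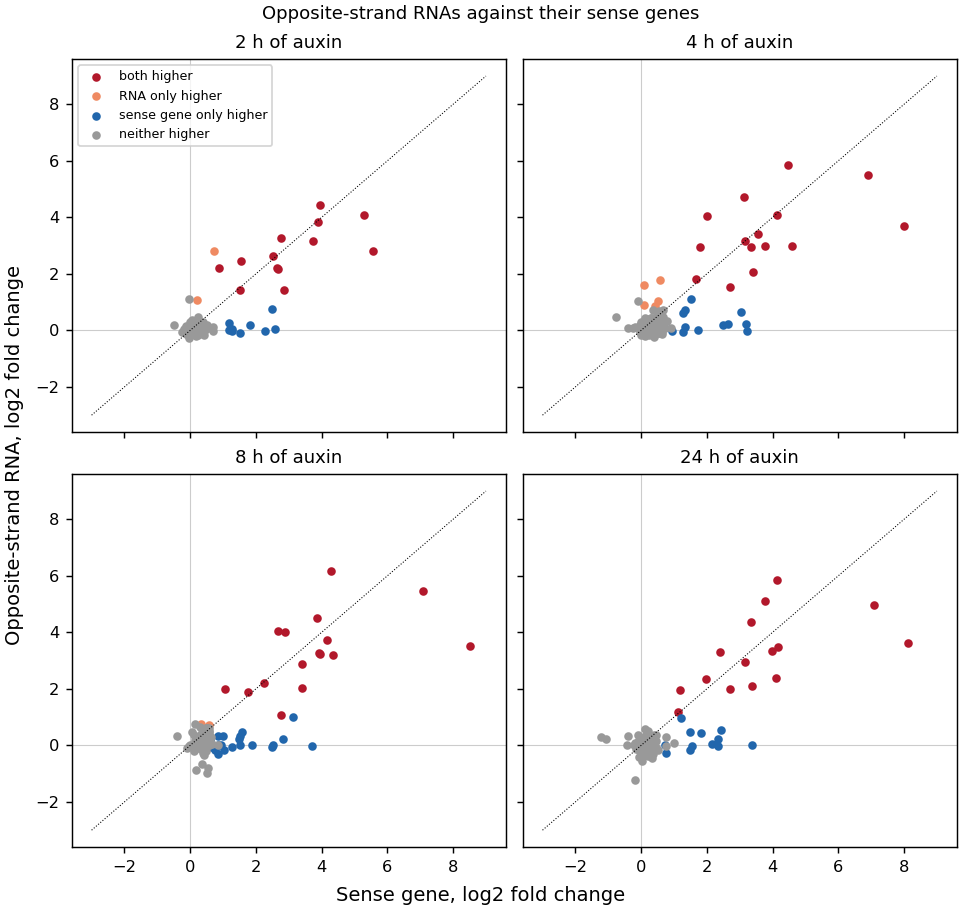
Log2 fold change of each opposite-strand RNA (vertical axis) against that of its sense gene (horizontal axis) at each auxin time, from the authors' values, for the 110 pairs with reads of both in untreated cells; colours mark which of the pair was called higher and the dotted line marks equal values. Pairs with both higher scatter around the line, and a row of pairs with only the sense gene higher lies near 0 on the vertical axis, as Pax6os1 does at 0.04 beside 2.57 for Pax6 at 2 h.

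In most pairs where only the sense gene was higher, the RNA had few reads. At 2 h, 15 of these 16 RNAs had under 10 untreated reads and 7 were listed at 0, and at 8 h 26 of 32 had under 10 and 10 were listed at 0. Their median was 1.17 reads at 2 h. Of the 14 RNAs called with their sense gene at 2 h, 10 also had under 10 reads, and the median was 5.28. St8sia3os (9.16 reads), Ptgs2os (7.75 reads) and Arhgap20os (6.11 reads) had values of -0.10, 0.28 and -0.01 at 2 h, while St8sia3, a sialyltransferase gene, stood at 1.52, the prostaglandin synthase gene Ptgs2 at 1.19 and Arhgap20 at 2.28 by the authors' deposited table. The potassium channel genes Kcnd3 and Kcnmb4 were higher at every time, and Kcnd3os and Kcnmb4os2 reached at most 1.01 and 1.12 by the authors' deposited table on 1.88 and 2.94 reads, without a call. Srrm4os, with 114 reads, had a value of -0.31 at 8 h, where Srrm4, a neuronal splicing factor gene, stood at 0.83 and was called by the authors' deposited table. With centring, Srrm4 came to 0.34 and was no longer past 1.5-fold.

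The libraries were directional, but whether the counting used strand is not given in the sources used here. An RNA and a sense gene that overlap may therefore share reads, and how far this touches the pairs was not tested. Some RNAs had no reads beside an abundant sense gene: Ppp2r2cos and Zeb2os were listed at 0 where Ppp2r2c and Zeb2 had 667 and 217 untreated reads. Positions were not available here, so whether these pairs overlap is unknown and they do not bear on shared reads.

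The 10 best-read RNAs without a call were Minos1, Ino80dos, Brip1os, Rab10os, Otx2os1, Map2k3os, Sp3os, Nphs1os, Ctcflos and Pla2g10os. Their values ran from -0.21 to 0.31 at 2 h, -0.03 to 0.46 at 4 h, 0.19 to 0.66 at 8 h and -0.21 to 0.33 at 24 h by the authors' deposited table. These ranges hold the medians of entries with 50 or more reads, 0.15, 0.40, 0.50 and 0.24. Of all RNAs with untreated reads that were not called, the lowest values were -0.27 for Tmem51os1 at 2 h, -0.22 for Ppifos at 4 h, -0.96 for Far1os at 8 h and -1.22 for Sorbs2os at 24 h by the authors' deposited table. The highest were 1.11 for Slfn5os at 2 h, 1.12 for Kcnmb4os2 at 4 h, 1.01 for Kcnd3os at 8 h and 0.96 for Kcnmb4os2 at 24 h by the authors' deposited table.

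**Figure D5:**
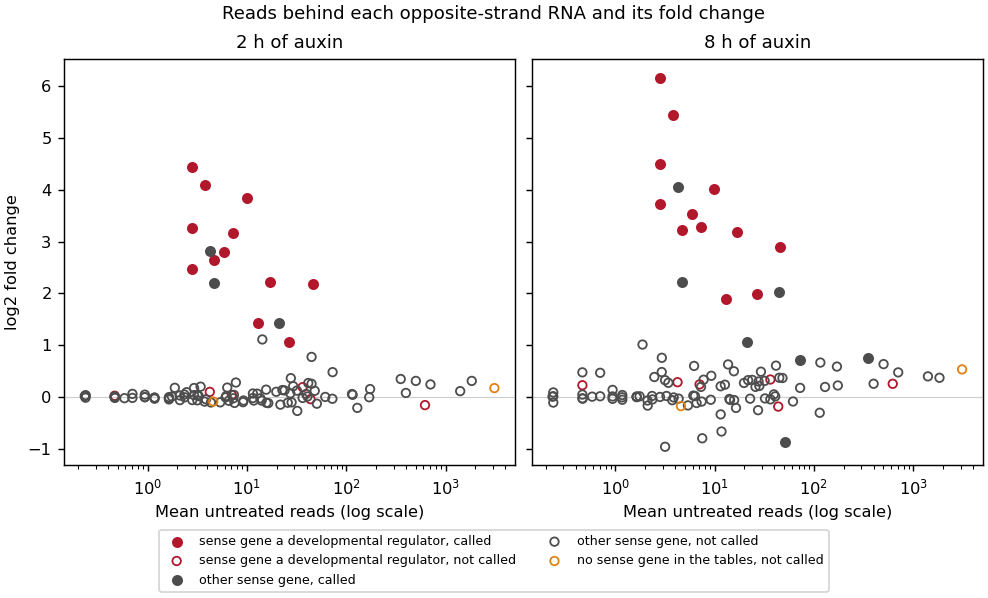
Log2 fold change at 2 h (left) and 8 h of auxin (right), the authors' values, against mean untreated reads on a log scale for the 114 opposite-strand RNAs with a value and with untreated reads; filled points were called. At 2 h the called RNAs have at most 45.8 reads, and at 8 h Epb41l4aos with 354 reads and Fam120aos with 73.0 are also filled, as is Stk35os1 below 0.

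In the PRC2deg line, 2 h of dTAG-13 gave 0 calls among the 131 RNAs and 0% of all 19506 entries tested with DESeq2. The 124 RNAs with a value lay between -1.6e-05 and 6.7e-06 on the log2 scale by the authors' deposited table, with adjusted p-values of 0.999956 to 0.99998. Those values allow an unadjusted p under 0.05 for 975 entries of the table at most. Wt1os had 107 untreated reads in that line and Emx2os 28.6, so RNAs with reads were among those without a call. No fold change of any entry in that table exceeded 0.000985 in size on the log2 scale by the authors' deposited table, so these values were not set beside those of PRC1deg, and the difference between the lines was not tested.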

How the data were processed

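Nuclear RNA of 21 libraries was depleted of ribosomal RNA and made into directional libraries read as pairs of 80 bp (PRC1deg) or 40 bp (PRC2deg), per the labels' protocols. The submitters' processing notes name STAR, Bowtie2, DESeq2, bedtools and SAMtools and the builds dm6 and mm10, without versions. The authors deposited 5 tables, 1 per comparison with untreated cells, holding log2 fold changes and adjusted p-values. The remaining measure, headed as RPKM, was read as the authors' mean signal per kilobase, since multiplied by length over 1000 it sums to 30450536 normalised reads in PRC1deg; that product is called untreated reads.

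The members and lists were chosen with earlier results of these data known. Sense genes were found by symbol, taking the coding entry with the most untreated reads. The prefix list of developmental regulators was read so that a lower-case family letter may follow a stem such as Hox or Fox, a reading chosen after the data were seen. RNAs named were those called with 10 or more untreated reads, any called lower, the 10 best-read without a call and the extremes at each time; the other RNAs named were chosen after their values were seen. No test was run beyond the authors' DESeq2 values. Selection and calling were tested on simulated data. Python 3.11.15, numpy 2.4.6, pandas 2.3.3 and matplotlib 3.10.9 were used.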

Additional observations from a re-analysis of the deposited data

How the results depend on the processing

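Alternatives were a threshold of 2-fold, an adjusted p under 0.01, adjusted p alone, centring, a minimum of 10 untreated reads, any entry of a symbol and, chosen after the data were seen, leaving out Minos1 and reading the prefix list as worded. Of 187 recomputed counts and medians, 63 set 0 against 0 and say nothing of stability. Of the other 124, 102 stayed within 1.5 times. These include the counts without Minos1, which could not change, because Minos1 had no call and no sense gene in the tables. Those counts say nothing of stability either. With 10 or more untreated reads, RNAs higher at 2, 4, 8 and 24 h numbered 5, 9, 8 and 5, pairs with both higher 3, 4, 5 and 4, and sense genes higher 17 at 2 h and 20 at 24 h, because fewer entries remained. The 1 RNA lower at 8 h and the 1 sense gene lower at 4 h (Fhad1) came to 0 at 2-fold and at an adjusted p under 0.01. The median log2 fold change of the RNAs was -0.13, -0.22, -0.36 and -0.22 with centring, a sign that comes from subtracting 0.15, 0.40, 0.50 and 0.24. With 10 or more reads it was 0.087, 0.30, 0.28 and 0.13. No paired analysis was possible because the tables carry no column per library, and for the same reason leaving out single replicates was not run. Most members have too few reads for a single value to be precise.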

Other observations

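Noncoding entries named with as or ot in place of os numbered 9, of which Gas5 and Gnas met that pattern by their letters only. Sox1ot, which overlaps the neural gene Sox1, had 81.8 untreated reads and log2 fold changes of 1.32, 2.20, 1.85 and 0.74 at 2, 4, 8 and 24 h by the authors' deposited table, all called. Sox2ot, around the pluripotency gene Sox2, had 10706 reads and values of 0.17, 0.23, -0.18 and -0.20 by the authors' deposited table, without a call. Kcnq1ot1, an imprinted RNA, had 13231 reads and values of 0.20, 0.62, 0.47 and 0.18 by the authors' deposited table, without a call. Hoxaas3 was listed at 0 in untreated cells and was called higher at 4, 8 and 24 h.

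A further 4 entries carried an os name in the PRC2deg table only and were not counted as members. One of them, AV026068, named Hand2os1 in the PRC2deg table, had values of 2.28, 4.44, 4.01 and 4.84 on 0.467 untreated reads by the authors' deposited table and was called at 4, 8 and 24 h. The other entries were 1700020I14Rik (Oip5os1), 5930412G12Rik (Fzd10os) and C230004F18Rik (Cdr1os), with values between -0.09 and 0.97 by the authors' deposited table and no call.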
